A study of Mus musculus with 11 samples.

Results

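The Polycomb mark H3K27me3 was profiled together with DNA methylation from 4000 and from 250000 mouse embryonic stem cells, and the peaks and CpGs of the smaller library were set against those of the larger one. The members were the 13511 peaks of the 250000-cell library on chromosomes 1 to 19, of 13921 in its whole list, with the 488 peaks of the 4000-cell library on the same chromosomes, of 495. At the level of single cytosines they were the 253533 CpGs of chromosomes 1 to 19 with a call in both libraries, of 21908008 CpGs in the deposited table. A peak of the 250000-cell library counted as found again when a peak of the 4000-cell library shared at least 1 bp with it.

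The method was CUT&Tag-BS, in which an antibody and protein A bring the transposase Tn5 to chromatin with a histone mark, the cut fragments receive methylated adapters, and bisulfite then converts unmethylated cytosines before sequencing. The cells were E14, a mouse embryonic stem cell line of 129/Ola background, kept in medium with fetal bovine serum and leukemia inhibitory factor. Both libraries used the same antibody against H3K27me3 and the same protocol, and the labels give them no difference other than cell number. They are called the 4K and the 250K library here, and the H3K27me3 libraries of 20000 and 100000 cells (20K and 100K) and a 250000-cell library without bisulfite are given beside them where they bear on a value. Each cell number was 1 library without replicates. Cell number, sequencing depth and the individual library therefore cannot be told apart, and no statement below is a test of cell number.

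H3K27me3 is written by Polycomb repressive complex 2 and is read by CBX proteins of Polycomb repressive complex 1. In embryonic stem cells it covers the silent promoters of developmental regulators, which lie in CpG islands that carry little DNA methylation, and at Hox clusters it forms domains much broader than single promoters. Many of these promoters also carry active marks, a state known as bivalent. The labelled cell type was checked through the chromatin at marker genes, since no expression was measured. Of 14 embryonic stem cell markers, 2 had a start in a 250K peak (Esrrb and Prdm14). In an H3K4me1 peak of the same study 8 had one, with Pou5f1 and Nanog among them but not Sox2 or Klf4. All 6 fibroblast, 3 neural and 3 endoderm markers had a start in a 250K peak. Where no start site was listed, both gene ends counted as starts. Start sites were listed for 10 of the 14 stem cell, 4 of 6 fibroblast, 3 of 3 neural and 0 of 3 endoderm markers. An H3K4me1 peak held a start of 1 of 6 fibroblast, 2 of 3 neural and 2 of 3 endoderm markers. H3K4me1 therefore did not set the stem cell markers apart from the neural and endoderm ones.

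The promoters of 6 developmental genes show the material behind both peak lists. Each sequence is the 250 bases upstream of a RefSeq start site (assembly GRCm38.p6), written 5′ to 3′ on the strand of the gene, outside every annotated gene. Capitals mark CpGs with at least 1 call in the 4K library. The first 3 had the most 4K calls among the ranked windows of listed developmental genes that start in a 4K peak. The ranking did not cover every chromosome.
Gdf7: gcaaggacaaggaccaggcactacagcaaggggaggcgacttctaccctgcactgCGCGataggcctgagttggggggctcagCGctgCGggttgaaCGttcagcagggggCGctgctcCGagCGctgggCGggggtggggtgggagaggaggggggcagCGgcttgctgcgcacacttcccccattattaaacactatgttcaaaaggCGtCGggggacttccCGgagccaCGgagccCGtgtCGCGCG
Neurog1: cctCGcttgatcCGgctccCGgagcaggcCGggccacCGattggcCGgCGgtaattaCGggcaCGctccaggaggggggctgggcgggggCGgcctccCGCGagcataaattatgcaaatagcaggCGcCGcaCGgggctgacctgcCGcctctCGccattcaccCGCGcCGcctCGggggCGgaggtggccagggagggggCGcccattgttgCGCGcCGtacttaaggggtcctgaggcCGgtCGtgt
Wnt2b: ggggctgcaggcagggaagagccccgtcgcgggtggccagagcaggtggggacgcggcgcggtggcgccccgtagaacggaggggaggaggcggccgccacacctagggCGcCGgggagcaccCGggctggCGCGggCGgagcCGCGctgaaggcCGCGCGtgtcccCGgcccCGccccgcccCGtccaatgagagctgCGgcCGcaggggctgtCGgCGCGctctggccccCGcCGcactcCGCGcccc
The other 3 had the most 250K calls among the ranked windows of listed developmental genes whose 250K peak was not found again. This ranking left out part of the chromosomes too.
Tbx20: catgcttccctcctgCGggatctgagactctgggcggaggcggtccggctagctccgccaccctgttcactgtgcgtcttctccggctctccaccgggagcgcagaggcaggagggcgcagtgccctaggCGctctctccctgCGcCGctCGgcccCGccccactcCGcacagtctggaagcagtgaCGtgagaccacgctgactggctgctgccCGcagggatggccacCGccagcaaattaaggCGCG
Foxi3: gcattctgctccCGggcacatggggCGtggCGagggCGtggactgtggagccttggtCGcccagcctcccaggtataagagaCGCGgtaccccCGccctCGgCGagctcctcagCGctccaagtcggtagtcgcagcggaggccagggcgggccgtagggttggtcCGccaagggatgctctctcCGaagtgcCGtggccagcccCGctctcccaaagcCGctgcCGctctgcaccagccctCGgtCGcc
Ihh: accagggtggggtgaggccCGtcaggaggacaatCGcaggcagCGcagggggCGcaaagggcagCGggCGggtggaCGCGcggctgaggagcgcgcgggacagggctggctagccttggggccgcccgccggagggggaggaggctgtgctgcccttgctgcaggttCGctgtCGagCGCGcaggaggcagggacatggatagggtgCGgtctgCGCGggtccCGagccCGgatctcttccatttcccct

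Gdf7, a growth factor of the roof plate of the neural tube, has this window at chr12:8301955-8302204 on the minus strand. It held 48 calls at 18 of its 20 CpGs in the 4K library and 1758 calls in the 250K library, with methylation levels of 4.17% and 0.683%. Neurog1, a bHLH factor that commits neural progenitors to sensory neurons, has its window at chr13:56252181-56252430 on the minus strand. It held 48 calls at 28 of 29 CpGs and 3045 calls, with levels of 0% and 0.46%; a count of 0 in 48 calls allows a level of up to 6.25%. The window of Wnt2b, a secreted Wnt ligand, lies at chr3:104961710-104961959 on the minus strand. It held 45 calls at 23 of 36 CpGs, none methylated, against 4059 calls at a level of 0.419% in the 250K library.

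The windows without a 4K peak were not empty. Foxi3, a forkhead factor of ear and ectodermal development (chr6:70956356-70956605, plus strand), held 43 calls at 19 of 24 CpGs in the 4K library and 3483 calls in the 250K library. Ihh, a hedgehog ligand of growing cartilage (chr1:74951673-74951922, minus strand), held 28 calls at 17 of 24 CpGs and 2576 calls. Tbx20, a T-box factor of heart development (chr9:24774304-24774553, minus strand), held 15 calls at 12 of 22 CpGs and 3504 calls. The 250K levels of these windows were 0.373%, 1.79% and 0.771%, all under 2%, as in the first 3. Over all such windows, the median number of CpGs was 18 for the 56 protein-coding genes that start in a 4K peak, 14 for the 89 in a found-again peak with a start outside the 4K peaks, 13 for the 1459 in a 250K peak not found again, and 4 for the 5905 in no 250K peak.

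With 4000 cells, 424 of the 13511 peaks of the 250K library were found again, or 3.14% (95% Wilson interval 2.86 to 3.45%). Wilson intervals here cover counting error only. In the other direction, 474 of the 488 4K peaks lay on a 250K peak, or 97.1% (95.2 to 98.3%). The 20K list overlapped 43.4% of the 250K peaks, the 100K list 78.2% and the list without bisulfite 94.5%. All 424 found-again peaks were also overlapped in the 20K and in the 100K list, and 421 of them in the list without bisulfite. The lists were unequal in length and the libraries unequal in depth: on chromosomes 1 to 19 the 4K library held 370744 CpG calls and the 250K library 36558653, or 10.1 4K calls for every 1000 250K calls.

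A 4K peak was a small piece of the 250K peak it fell in. Of the 488 4K peaks, 357 had a width of 1001 bp, which was the smallest in the list. The 4K peaks covered a median of 7.66% of a found-again 250K peak (quartiles 4.45 and 11.5%). Most found-again peaks held 1 4K peak (387 of 424); 31 held 2, 3 held 3, 2 held 4, and 1, the HoxC cluster, held 8.

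Found-again peaks were wide. Their median width was 16500.5 bp (quartiles 10829.2 and 26233 bp) against 3054 bp (1283 and 6910 bp) for the 13087 others. Below 2000 bp, 3 of 4992 peaks were found again (0.0601%), and from 2000 to under 5000 bp 11 of 3563 (0.309%). The share was 2.94% (80 of 2719) from 5000 to under 10000 bp and 14.8% (330 of 2237; 13.3 to 16.3%) from 10000 bp on. It was still higher in the widest peaks, with 32.0% of 194 peaks from 30000 to under 50000 bp and 39.1% of 46 peaks of 50000 bp or more. Even among the widest peaks, more were missed than found. A wider peak offers more bases for an overlap of 1 bp, so the climb with width follows in part from the rule. The 20K list overlapped 4.23% of peaks under 2000 bp and 95.8% from 10000 bp on, the 100K list 47.3% and 99.96%.

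CpG density and methylation separated the groups less evenly than width. Found-again peaks had a median of 20.7 CpGs per kb against 16.98 in the others, and the share found again was 0.221% below 10 CpGs per kb, 3.19% from 10 to 20, 5.34% from 20 to 40 and 0.376% (3 of 797) at 40 or more. The densest peaks were mostly narrow: 399 of those 797 were under 2000 bp wide and 5 were 10000 bp or wider. Peaks with a 250K methylation level under 20% were found again in 5.95% of cases and those from 20 to 50% in 5.56%, whereas 2 of 3254 peaks from 50 to 80% and 1 of 2549 at 80% or more were found again. The median 250K level, over peaks with at least 20 calls, was 20.7% in 421 found-again peaks and 43.9% in 12662 others.

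Both properties also differed within width classes, which match width only in part. At 10000 bp or more the median width was 20492.5 bp in found-again and 14558 bp in other peaks. Within peaks of 10000 bp or more, the share found again was 22.0% (149 of 678) at a level under 20%, 16.6% (179 of 1077) from 20 to 50%, 0.539% (2 of 371) from 50 to 80%, and 0 of 111 at 80% or more, where a count of 0 allows up to 2.70%. In the same width class it was 1.17% below 10 CpGs per kb, 12.4% from 10 to 20 and 20.9% from 20 to 40. The gap in median level was smaller within this width class, at 8.14 points against 23.2 points over all peaks. With all calls of a group pooled, so that peaks with many calls weigh most, the 250K levels were 19.8% in found-again and 24.8% in other peaks.

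The tallest local signal of the 250K library also separated the groups. For each peak, the most 250K calls in any 1000 bp were counted. The median was 4971.5 in found-again peaks and 168 in the others. In the top decile of peaks by this count, 346 of 1352 were found again (25.6%; 23.3 to 28.0%), and in the next decile 62 of 1351 (4.59%). Each of the other 8 deciles had between 0 and 9 found-again peaks. At 7500 to 10000 calls 38 of 67 peaks were found again (56.7%), and all 7 peaks with 10000 or more were. This held within wide peaks: at 10000 bp or more the medians were 5237.5 calls for found-again and 2538 for other peaks. These calls follow the number of CpGs as well as the number of fragments, since a fragment without a CpG gives no call.

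**Figure D1:**
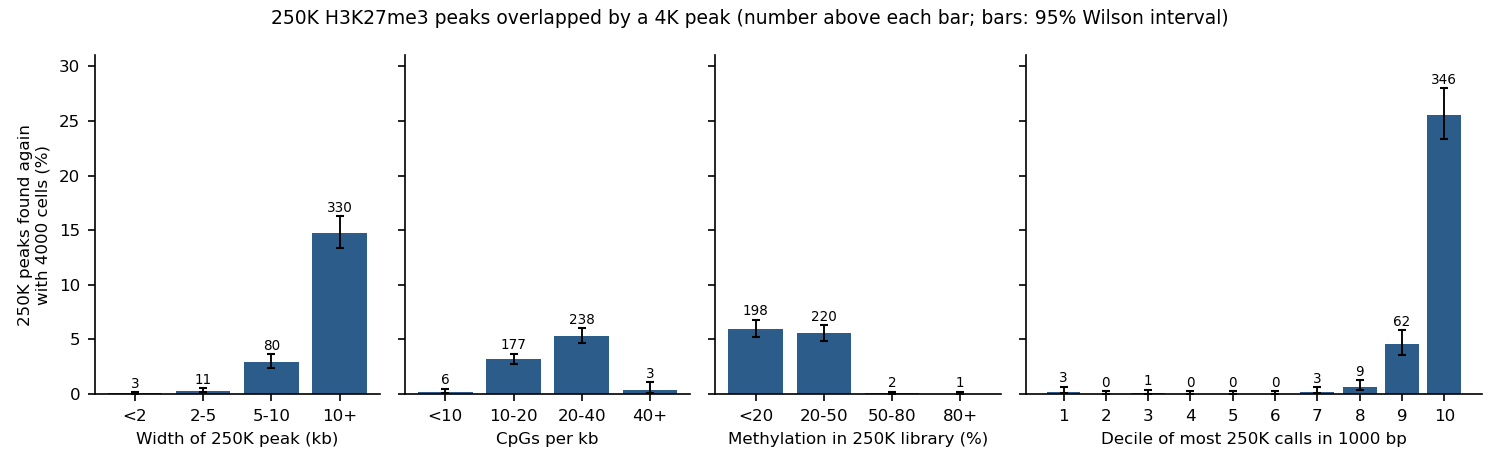
Share of 250K H3K27me3 peaks overlapped by a 4K peak, in percent, by peak width in kb, CpGs per kb, methylation level in the 250K library and decile of the most 250K calls in any 1000 bp of the peak; error bars are 95% Wilson intervals and the numbers above the bars count the peaks found again. The share climbs to 14.8% at 10 kb or more and to 25.6% in the top decile of local calls, and is near 0 at methylation levels of 50% or more.

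Peaks missing from the 4K list still held 4K calls. Peaks not found again held 9.39 4K calls per 1000 250K calls (9.35 to 9.43) and found-again peaks 9.68 (9.61 to 9.75). The latter value is set in part by the choice of the peaks on 4K signal: it was 16.5 under the 4K peaks and 7.26 in the rest of the same peaks, and nothing is read from the comparison. Peaks not found again carried 56.9% of all 4K calls on chromosomes 1 to 19, found-again peaks 18.4%, and the genome outside 250K peaks 24.6%; the same shares in the 250K library were 61.5%, 19.3% and 19.2%. Outside 250K peaks the ratio was 13.02 (12.93 to 13.10). Per CpG, the 4K library had 0.370 calls in found-again peaks, 0.158 in the others and 0.00484 outside. The calls were thinly spread: 5211 of the 13087 peaks not found again (39.8%) had no 4K call, and their median was 2 calls against 129.5 in found-again peaks.

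The ratio was not the same for all peaks. Peaks not found again held 12.5 4K calls per 1000 250K calls when under 2000 bp wide (12.2 to 12.8) and 8.40 when 10000 bp or wider (8.35 to 8.45). Grouped by chromosome, all calls gave ratios from 9.37 on chromosome 5 to 11.3 on chromosome 10. Methylation in the 4K library was near that of the 250K library in each class: 18.1% against 19.8% in found-again peaks, 23.6% against 24.8% in the others, and 65.0% against 69.5% outside.

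**Figure D2:**
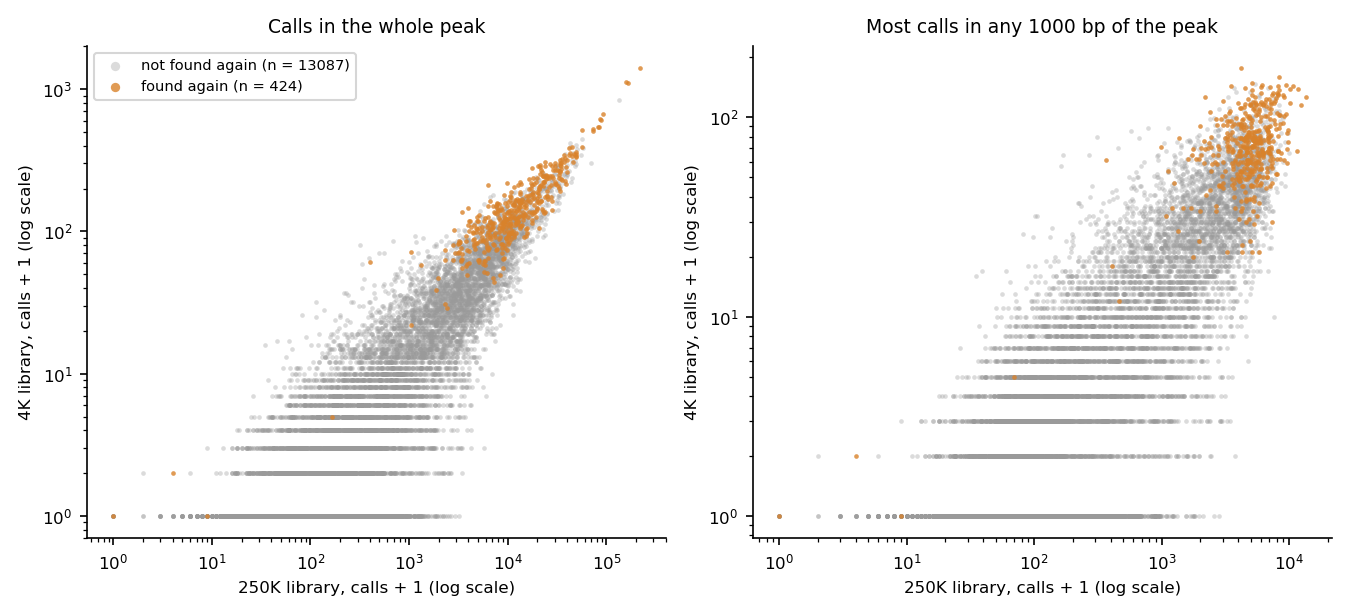
Calls in the 250K library (x) and in the 4K library (y), each plus 1 on log scales, for the 13511 250K peaks; left, calls in the whole peak, right, the most calls in any 1000 bp of the peak. Found-again peaks (orange, 424) lie mostly at the upper right, among peaks not found again (grey, 13087) with as many calls.

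Within found-again peaks, the 4K peak sat on the CpG-rich and least methylated part. The 4K peaks chose these stretches, so their 4K calls are no evidence; the 250K library and the genome were not used in that choice. The parts under a 4K peak had 49.4 CpGs per kb, a 250K level of 9.58% and 66.0 250K calls per CpG. The rest of the same peaks had 18.6 CpGs per kb, a level of 23.5% and 33.3 calls per CpG. Peak by peak, CpG density was higher under the 4K peak in 375 of 421 peaks, 250K calls per CpG in 408, and the 250K level was higher in 81. The median level was 8.17% under the 4K peak and 29.0% in the rest. A listed protein-coding start site lay in 128 of the 488 4K peaks (26.2%) and within 1000 bp of 203 (41.6%).

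**Figure D3:**
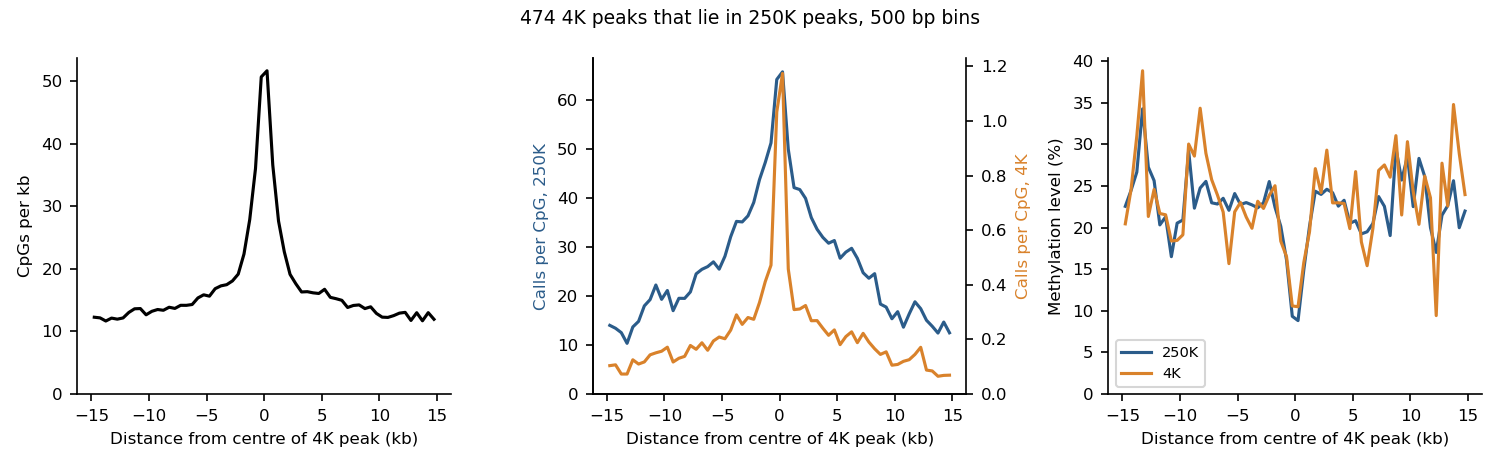
Profiles over 30 kb centred on the 474 4K peaks that overlap 250K peaks, in 500 bp bins: CpGs per kb, calls per CpG in the 250K (blue, left axis) and 4K library (orange, right axis), and methylation level in percent. Next to the centre, at -0.25 kb, CpG density was 50.6 per kb and the 250K level 9.35%. At -4.75 kb they were 15.6 per kb and 22.8%. The 250K calls form a broad hill around the centre. The 4K peaks were chosen on 4K signal, so the narrow 4K summit follows in part from centring on them. Its sharpness is therefore not compared with that of the 250K hill.

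Found-again peaks more often lay at genes. A protein-coding start lay in 370 of 424 found-again peaks (87.3%, 83.8 to 90.1%) and in 4732 of 13087 others (36.2%, 35.3 to 37.0%). This count takes both gene ends where no start site was listed. With listed start sites alone, the counts were 279 of 424 (65.8%) and 3653 of 13087 (27.9%). A peak of the study's unified H3K4me1 list, the mark of enhancers and promoter flanks, overlapped 63.4% of found-again and 26.1% of other peaks. At a width of 10000 bp or more the shares were 88.2% against 69.0% for starts, with gene ends included, and 72.1% against 52.8% for H3K4me1. H3K9me3 peaks, which mark heterochromatin, overlapped 1.89% and 1.34%. At 10000 bp or more the order was reversed, at 1.52% (5 of 330) and 2.78% (53 of 1907). Because wide peaks hold more of everything, the shares over all widths mix gene content with width. Those at 10000 bp or more still do so in part, since found-again peaks were also wider within that class.

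Genes of the developmental lists were found again in a larger share than other genes. Of 20661 protein-coding genes, 5497 (26.6%) had a start in a 250K peak, and for 470 of these (8.55%) that peak was found again. Of 291 genes in the developmental lists (transcription factor families and secreted ligands), 262 had a start in a 250K peak and 110 of these were in found-again peaks, or 42.0% (36.2 to 48.0%). Among the other protein-coding genes 360 of 5235 were (6.88%; 6.22 to 7.59%). In peaks of 10000 bp or more the counts were 108 of 233 (46.4%; 40.1 to 52.8%) for the developmental lists and 280 of 1743 (16.1%; 14.4 to 17.9%) for other genes. Genes of a cluster share a peak, so the count by peak is given too: 75 of 219 peaks with a developmental start were found again (34.2%), 295 of 4883 with another protein-coding start only (6.04%), and 54 of 8409 with none (0.642%). In peaks of 10000 bp or more the counts by peak, in the same order, were 73 of 189 (38.6%), 218 of 1418 (15.4%) and 39 of 630 (6.19%). A start inside the 4K peak itself was rarer, for 168 genes in all (0.813%) and 21 of the 291 developmental ones.

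The Hox clusters, whose genes set position along the body axis, gave the peaks with the most 4K calls. All 39 Hox genes lay in a 250K peak, and 30 of them in one found again: all 11 Hoxa, 9 Hoxc and 9 Hoxd genes, and 1 of 10 Hoxb genes. The HoxC peak (chr15:102902505-103076963) is 174459 bp wide and held 1407 calls in the 4K, 21635 in the 20K, 125681 in the 100K and 217465 in the 250K library. The HoxA peak (chr6:52149126-52278436) held 1126, 15783, 89649 and 159711 calls in the same order, and the HoxD peak (chr2:74645356-74772400), which also holds Evx2, held 1096, 16689, 95957 and 166885. The order of the 4 clusters was the same in the 20K, 100K and 250K libraries, with HoxC highest and HoxB lowest; in the 4K library HoxC was again highest and HoxB lowest, and HoxA and HoxD were close.

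HoxB was the only cluster without a 4K peak, and it had the fewest calls of the clusters in each library. Whether its lower calls account for the missing peak was not tested. Its 134832 bp peak (chr11:96250835-96385666) with Hoxb1 to Hoxb9 held 832, 13548, 76241 and 132806 calls from the 4K to the 250K library. It had more 4K calls than any other peak not found again. Its ratio of 6.26 4K calls per 1000 250K calls was near those of HoxC (6.47), HoxD (6.57) and HoxA (7.05). Its densest 1000 bp held 58 4K calls, against 60 in HoxC, 76 in HoxA and 86 in HoxD. Hoxb13, in a separate peak of 49646 bp, was found again with 291 4K calls. Methylation was alike across the clusters: 12.5% in the 4K and 13.5% in the 250K library for HoxA, 11.3% and 13.7% for HoxB, 13.2% and 14.3% for HoxC, and 12.68% and 12.99% for HoxD.

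**Figure D4:**
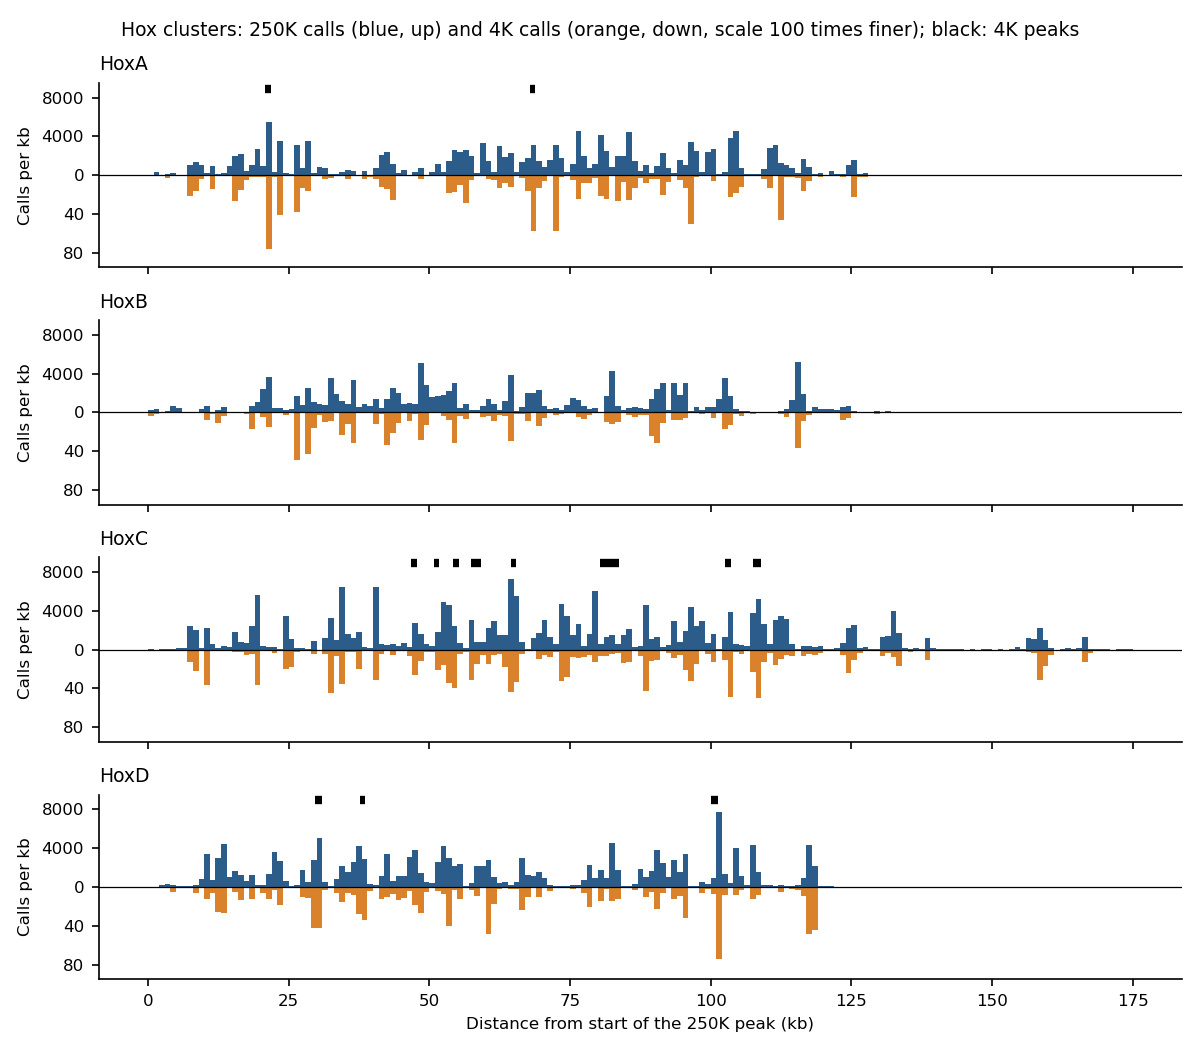
Calls per kb along the 250K peaks of the 4 Hox clusters, by distance from the peak start in kb: 250K library upward in blue, 4K library downward in orange on a scale 100 times finer, and 4K peaks as black bars. The 4K calls are sparser, with kb-long stretches at 0, as in the last part of HoxC; HoxC carries 8 4K peaks, HoxD 3, HoxA 2 and HoxB none.

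The 4K peaks within the clusters were unequal in calls. The 2 in HoxA held 75 calls at a level of 10.7% and 57 calls at 0%, where the 250K library had 19.01% and 0.644%; 0 of 57 allows up to 5.26%. The 8 in HoxC held between 16 and 67 calls, and the 3375 bp peak at Hoxc9 held 20. The 3 in HoxD held 78, 40 and 35 calls. Several stretches of HoxB held as many CpG calls as these, so the deposited CpG calls alone do not separate them from the stretches called as peaks.

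After the Hox clusters, the found-again peaks with the most 4K calls included that at Six2 and Six3, homeobox genes of kidney and forebrain, with 610 4K and 86327 250K calls. Lmx1b, a LIM homeobox gene of limb and midbrain, had 541 and 81671. The peak with Wnt1 and Wnt10b (and Ddn) had 536 and 84346, that of Rhcg, an ammonium transporter, 524 and 72619, and that of Wnt3 and Wnt9b 513 and 56038. The 250K level of these 5 peaks was lowest at Wnt1 and Wnt10b (16.5%) and highest at Wnt3 and Wnt9b (41.4%), and their 4K levels were 18.5% and 30.2% there.

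Among the Pax genes, transcription factors of neural tube, somites and sense organs, all 9 were in a 250K peak and 3 in one found again. Pax3 had 351 calls in the 4K and 49266 in the 250K library, Pax7 225 and 37745, and Pax1 222 and 23386. Pax6, the eye and forebrain regulator, was not found again with 356 and 45684 calls, nor was Pax2, a kidney regulator, with 314 and 45110. Pax9, Pax5, Pax8 and Pax4 had 178, 164, 59 and 4 4K calls. The call numbers of found and missed Pax genes therefore overlapped. Pax6 was above all 3 found genes in 4K calls and below Pax3 in 250K calls.

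Of 16 T-box genes, 11 were in a 250K peak and 5 in one found again. These were Tbx1, a regulator of the pharyngeal arches (504 4K and 73307 250K calls), Tbx2 (338 and 45067), Tbx15 (337 and 48652), Tbr1, a cortical neuron factor (173 and 23886), and T, the mesoderm gene Brachyury (103 and 15456). Tbx18 with 219 4K calls, Tbx4 with 199 and Tbx20 with 135 were missed, although each exceeded T. Of 11 genes of the Gata and endoderm list in a 250K peak, 2 were found again, Gata3 (281 and 39403) among them. Gata2, a blood progenitor factor, was not with 279 and 32611, nor were Foxa1 with 219, Foxa2 with 209, Gata6 with 183 and Gata4, in the widest missed peak of this list, with 144 4K calls.

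Neural bHLH genes, the proneural and neuronal differentiation factors, had 19 members in a 250K peak and 6 found again. Neurod2 had 388 4K and 56539 250K calls, Neurog1 360 and 48782, Neurog2 334 and 49249, Ptf1a 302 and 30251, Atoh1 221 and 19365, and Hey2 75 and 6169. The 5 with the most 4K calls were all found, and the missed member with the most was Olig2 with 139 and 29162. Found peaks were chosen on 4K signal, so this order follows in part from the choice and nothing is read from it. Among the found genes only Hey2, whose peak of 7685 bp was the narrowest of the 6, lay within the 4K calls of the missed genes. In 250K calls the found and missed genes overlapped further, with the missed Olig2 above the found Atoh1.

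The remaining lists gave counts between these. Of the 103 non-Hox homeobox genes, 101 were in a 250K peak; 40 were in one found again, and 7 had their start in a 4K peak, among them Dlx5 (351 and 46851 calls), Lbx1 (301 and 33827) and Pitx3 (282 and 21414). Of 34 signalling ligands, 11 were found again and 8 had a start in a 4K peak, with Shh, the hedgehog ligand of the notochord and floor plate, at 173 and 27631 calls and Wnt11 at 246 and 24196. Wnt8a, in the widest missed peak of a ligand, had 127 and 11707. The counts were 6 of 28 for forkhead genes, 5 of 9 for Sox genes and 2 of 4 for Zic genes. Foxd2 was found again with 357 and 42928 calls, and Foxs1, in a wider peak, was missed with 96 and 15468. Sox1, a neural progenitor factor, had 342 and 41883 calls, and Sox14 was missed with 178 and 28673. Zic2 and Zic5 share a peak with 133 and 23486. Zic1 and Zic4 share another with more 4K calls, 229 and 31939, that was not found again.

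Of 18 genes for Polycomb subunits, 5 had a start in a 250K peak and 2 in one found again. Bmi1, a subunit of Polycomb repressive complex 1, had 223 4K and 44162 250K calls at levels of 3.59% and 4.30%, among the lowest of the peaks named here, and was not found again. No start of the 19 housekeeping genes lay in a 250K peak. Of 10 germline genes known to be silenced by promoter methylation, 5 had a start in a 250K peak and none was found again, which with 5 genes allows a share of up to 60%. Their 4K calls numbered from 0 at Ddx4 and Slc25a31 to 38 at Sycp1, and their 250K levels were between 38.4% at Ddx4 and 72.1% at Slc25a31. Esrrb and Prdm14 had 99 and 23 4K calls and were not found again. Of the fibroblast markers 1 of 6 was found again (Twist2, with 161 4K calls, while Twist1 had 166), of the neural markers 2 of 3 (Sox1 and Neurog2), and of the endoderm markers 0 of 3.

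The widest peaks that were missed were of several kinds. The widest, at 174548 bp (chr7:143299431-143473978), holds the imprinted genes Kcnq1, Cdkn1c and Slc22a18 and had 377 4K and 50847 250K calls at levels of 39.5% and 50.5%. HoxB was next. The peak of 109796 bp at Nkx1-1 had 299 and 69687 calls with 59.5% and 47.3%, and that of 102189 bp at Th, the tyrosine hydroxylase gene, had 47 and 6366 with 91.5% and 80.03%. Nfix (295 and 48728 calls) and Uncx (387 and 58332), a homeobox gene of the somites, had 250K levels of 31.4% and 15.7%. Of the 10 widest, 3 held no protein-coding start, had 250K levels from 61.8% to 83.6% and had between 47 and 89 4K calls. By 4K calls, HoxB was followed by Nr2f2 with 446, a peak with Hes2 and Espn with 417, and a peak with Scarf2 with 402.

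The share found again differed by chromosome. On chromosome 15 it was 47 of 777 peaks (6.05%; 4.58 to 7.95%), and on the other 18 it was between 1.81% on chromosome 9 and 4.17% on chromosome 2. Chromosome 15 had 10.2 4K calls per 1000 250K calls, inside the range of the other chromosomes, and 59 of the 488 4K peaks.

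Of the 488 4K peaks, 14 overlapped no 250K peak. The 2 at Gdnf, the glial growth factor gene (chr15:7810833-7811833 and chr15:7813390-7816089), had 54 and 146 4K calls and 4717 and 12053 250K calls, with 250K levels of 4.81% and 12.9%. Both overlapped a 20K peak, a peak of the library without bisulfite and an H3K4me1 peak, but no 100K or 250K peak. The peak at Cerk (chr15:86186034-86187034) had 27 and 1989 calls and overlapped a 20K peak. These 3 therefore lay in stretches rich in 250K calls that the 250K list leaves out. The other 11 had at most 41 250K calls each. The one in Scfd2 (chr5:74308025-74309025) had 56 4K calls at 76.8% and no 250K call, and the rest had between 0 and 25. Of these, 3 lay in Mup-ps1, Treml1 and D130079A08Rik, 5 lay within 10000 bp of Gm38845, Vmn1r66, Htr3b, Actbl2 and Gm33756, and 2 had no gene that near.

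Methylation was then compared at single CpGs. Of 291719 CpGs with a 4K call, 86.9% also had a 250K call: 99.6% inside 250K peaks and 53.5% outside. At 81.2% of them the 4K library had 1 call, so a single CpG gives 0% or 100%. Across the 1701 CpGs with at least 5 calls in each library, Pearson's r was 0.783 and Spearman's rho 0.678, the median absolute difference was 2.56 points, and 80.7% lay within 20 points. CpGs on the same fragments share calls, so this describes these CpGs and carries no test.

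Binning CpGs by their 250K level used the single calls too. At CpGs with at least 10 250K calls and a level of 0, the 4K level was 1.31% (1.24 to 1.39%, 85996 calls). Where the 250K level was between 0 and 20%, with a mean of 5.98%, the 4K level was 5.83% (5.69 to 5.98%). The 4K level was 31.1% where the 250K mean was 32.3%, 65.5% where it was 64.8%, and 87.1% where it was 89.0%. At CpGs fully methylated in the 250K library it was 93.0% (92.2 to 93.8%, 3767 calls). The end bins were picked at 0 and 100% in the 250K library, so a 4K level inside those ends follows from the choice in part. At CpGs of intermediate 250K level with exactly 2 calls in the 4K library, both calls had the same state at 69.9% of 5084 CpGs (68.7 to 71.2%), against 55.7% for independent calls at the 250K level. In the 20K library the values were 61.4% of 28163 CpGs and 54.6%.

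The level over the same CpGs depended on their weights. At the 210488 CpGs inside 250K peaks with a call in both libraries, the pooled level was 22.2% in the 4K library (22.0 to 22.3%) and 15.0% in the 250K library (14.99 to 15.04%), 7.15 points apart. With each CpG weighted equally the levels were 23.6% and 23.5%, 0.0839 points apart. With each CpG's 250K level weighted by its 4K calls the 250K value was 22.1%, 0.0611 points below the 4K value. By construction the pooled value weights each CpG by the library's own calls, and the 250K library had more of its calls at CpGs of low level. Outside 250K peaks the pooled gap was 25.3 points and the weighted one -0.288.

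The same weights bear on single peaks. Fisher's exact test (two-sided, Benjamini-Hochberg adjusted over all peaks tested) on calls pooled over the shared CpGs, with at least 20 calls in each library, put 482 of 3401 peaks past an adjusted p of 0.05 (14.2%), 466 higher in the 4K library (13.7%) and 16 lower (0.47%). In simulated independent calls this test called 10.84% of the unchanged peaks, against 0.125% for the stratified test below. Its count is therefore not a count of peaks that differ. With all CpGs of a peak in each library the balance turned: 560 of 3410 peaks were past the Fisher threshold, 195 higher and 365 lower. An exact test stratified by CpG, which compares the libraries within each CpG and was added after the data were seen, put 39 past it (1.15%): 31 higher (0.911%) and 8 lower (0.235%) in the 4K library. Of these 39, 33 were also past the Fisher threshold. Unadjusted p-values under 0.05 numbered 899 and 331 of 3401. The correlation of peak levels was 0.869 with pooled and 0.944 with weighted 250K levels, and the median absolute difference 5.04 and 2.59 points. These tests compare 2 libraries, not 2 cell numbers, and since calls on a fragment are not independent their p-values are too small.

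Few peaks of either group passed. By the stratified test 4 of 420 tested found-again peaks and 35 of 2981 others were past the threshold, and the median absolute difference was 1.82 and 2.74 points. Among 206 tested peaks with a developmental start, 1 was past it, that of Uncx, with 20.2% of 387 4K calls against a weighted 250K level of 13.96% (adjusted p of the exact stratified test 0.0012).

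The 5 largest higher differences by the Fisher test kept their direction under weighting, and 4 of the 5 were smaller. At Tesc, a calcineurin-related gene, the 4K level was 61.4% (27 of 44 calls) against a weighted 18.5% and a pooled 10.1% (adjusted p 3.47e-13 by the exact stratified test). At Inpp5j, a phosphoinositide phosphatase, it was 96% of 25 calls against 49.3% and 50% (0.00209, same exact test). The Inpp5j peak had 9 shared CpGs with 80 250K calls. A peak without a gene start on chromosome 17 (chr17:27321208-27327627) had 69.2% of 26 calls against 37.9% and 20.6% (0.0196). Car4 and Ramp1, past the Fisher threshold at 89.7% and 62.5%, had weighted 250K levels of 77.5% and 42.6% and stratified adjusted p of 0.482 and 0.415. Of the 5 largest lower differences, 1 was past the stratified threshold: the peak at chr7:145205604-145207131, with 0 of 35 4K calls methylated (a limit of 8.57%) against 35%. Its shared CpGs numbered 5 and held 20 250K calls, 6 of them methylated. The peaks at Arhgef17 (26.9% against 51.7%), Ccdc149 (13.8% against 20.96%) and Gm13287 with Gm13288 (20% against 30.9%), and the peak at chr10:81276589-81286057 (14% against 22.8%), had stratified adjusted p from 0.055 to 0.766.

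Other peaks past the stratified threshold, chosen after their values were seen, included Rgs2, a regulator of G-protein signalling, at 17.7% of 79 4K calls against 1.41% (adjusted p 1.37e-12, exact stratified test). Rufy3 had 32.2% of 59 calls against 6.41%, and Frmpd1 32.4% of 68 against 7.61%. Insm1, a neuroendocrine zinc finger factor, had 15.2% of 151 against 4.33%. Lower in the 4K library, against weighted 250K levels, were Nfe2l3 (4.55% of 22 calls against 31.8%) and Arid5a (18% of 50 against 37.4%). So were Sccpdh (16.1% of 62 against 34.5%), Nrtn (12.96% of 108 against 23.1%) and Shank3 (0 of 47, a limit of 6.38%, against 10.1%). None of these lower peaks was past the Fisher threshold. Pooled levels kept the direction at Nfe2l3, Arid5a and Shank3. At Sccpdh the pooled 250K level was 11.2%, below the 4K level, and at Nrtn it was 13.05%, near it.

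**Figure D5:**
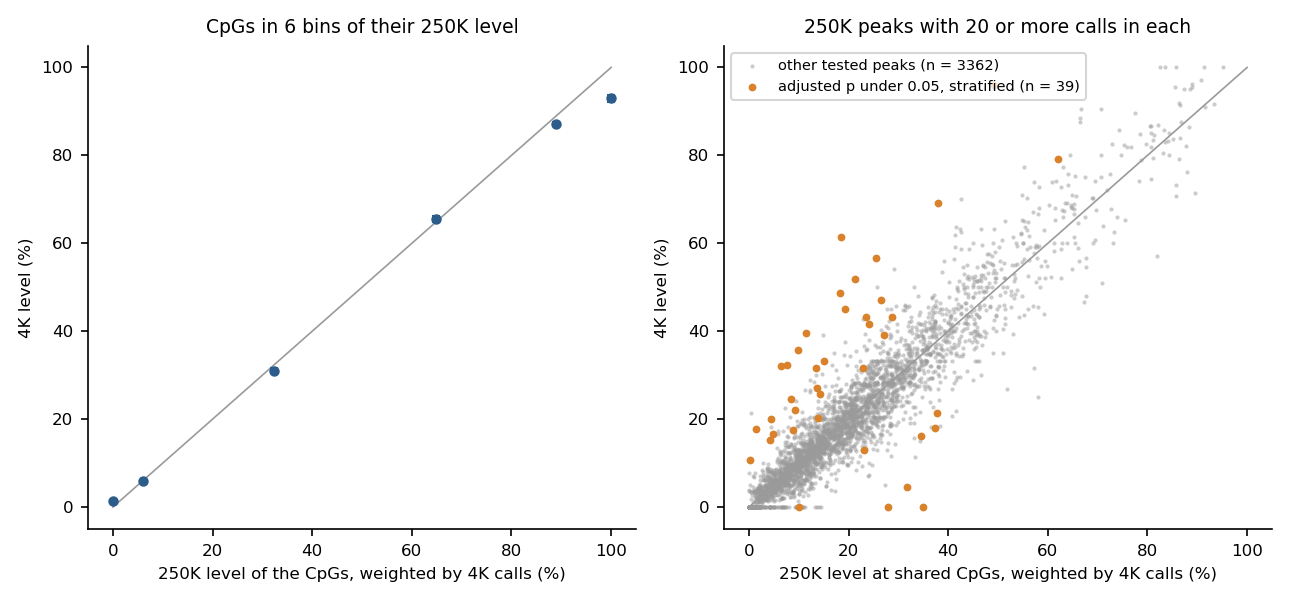
Methylation level in the 4K library (y) against the 250K level weighted by 4K calls (x), both in percent; left, CpGs of chromosomes 1 to 19 in 6 bins of their 250K level with 95% Wilson intervals, right, the 3401 250K peaks with at least 20 calls in each library at shared CpGs. The bins follow the diagonal, with the 4K level at 93.0% in the end bin of 100%, and 39 peaks (orange) are past an adjusted p of 0.05 in the exact test stratified by CpG.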

How the data were processed

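CUT&Tag-BS libraries for H3K27me3 from 4000 and 250000 mouse E14 cells were compared, 1 library each. The authors deposited, per CpG and library, whole-number counts of methylated calls and of all calls without normalization, per the file headers, and a list of peak positions without scores per library. The submitters' processing notes name cutadapt 1.12, Bismark 0.23.0, Bowtie2 2.3.0, HOMER 4.10.3, bedtools 2.29.2 and build mm10; the treatment of duplicate reads is not given in the sources used here. Positions follow the deposited files and count from 1; only chromosomes 1 to 19 were used. All 395568 CpGs of the RefSeq promoter sequences on these chromosomes (GRCm38.p6) fell on a CpG position of the table. The count columns of the 20K and 100K libraries were used where their values are given, and no other per-sample columns were used. Calls are not normalized and libraries differ in depth, so ratios of 4K to 250K calls were used.

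A level is methylated over all calls. Gene starts came from the RefSeq promoter table for 16456 of 20661 protein-coding genes and were taken as both gene ends for the rest. Shares have 95% Wilson intervals (counting error only), and a count of 0 is given with the share that 3 counts would make. Peaks with at least 20 calls in each library were tested with Fisher's exact test, Benjamini-Hochberg adjusted; overlap was 1 bp. Because pooling weights the CpGs of the libraries differently, a test stratified by CpG was added after the data were seen. Both tests were tested on simulated data, where the Fisher test called many unchanged peaks and the stratified test few. The simulated calls were independent, unlike calls on a fragment. The simulation therefore cannot show how often the stratified test calls unchanged peaks in the real data. Alternatives varied the overlap, the peaks, the minimum of calls, the weights and the distance to genes. Named were the 10 found-again peaks with the most 4K calls, the 10 widest missed peaks, 4K peaks off the 250K list (in part by group), the 5 largest level differences each way, for each gene list its leading found and missed members, and found Pax, T-box, Gata and neural bHLH genes; a few items that this rule names are not reported here. The members and gene lists were chosen with earlier results of these data known. Python 3.11.15 with SciPy 1.17.1 was used.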

Additional observations from a re-analysis of the deposited data

How the results depend on the processing

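No paired analysis was possible because each cell number was a single library. The share of 250K peaks found again was 3.14%, and 1.07% or 0.0222% when 4K peaks had to cover 10% or 50% of the 250K peak; among the 488 widest 250K peaks it was 29.5%. The gap in median CpG density, 3.74 per kb, was 2.44 in peaks 5000 to 10000 bp wide and 2.79 in wider ones. The gap in 250K level, -23.2 points, was -10.5 and -8.14 in those classes, -16.2 with at least 50 calls and -4.99 with calls pooled. At 3 calls per CpG r was 0.804. The pooled level difference at shared CpGs, 7.15 points, was 5.82 with at least 3 calls, 25.3 outside 250K peaks, 0.0839 with CpGs weighted equally and 0.0611 with 250K levels weighted by 4K calls, the last added after the data were seen. The 482 peaks past the Fisher threshold became 160 with a difference of at least 20 points and 39 with the added stratified test; with all CpGs of a peak 560 were past it, 195 higher and 365 lower in the 4K library, against 466 and 16. Peaks not found again held 12.5 instead of 9.39 4K calls per 1000 250K calls when up to 2000 bp wide. Where no construction is named, the cause was not tested. Outside 250K peaks the level difference also turned, to -0.276 with CpGs weighted equally and -0.288 weighted by 4K calls. Depth is one limit: 81.2% of the CpGs covered in the 4K library had 1 call.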

Other observations

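Some regions rich in 250K calls were absent from the 250K peak list. The median found-again peak had 709 250K calls per kb. Of 74 20K peaks that overlap no 250K peak, 10 had at least that many, as had 1 of 4910 such peaks of the library without bisulfite and 0 of 900 such 100K peaks. The 20K peak at Gdnf (chr15:7806596-7821809) had 31189 250K and 266 4K calls, or 2050 250K calls per kb. The 20K peak with starts of Cyp24a1 and Pfdn4 had 9374 250K and 72 4K calls, that at Arhgap31 7222 and 51, that at Hrh3 8765 and 101, and that at Cerk 9419 and 88. A 20K peak without a protein-coding start (chr10:7389094-7394677) had 11629 and 163, at levels of 10.7% and 8.59%. These regions were chosen after their values were seen, and the cause of their absence from the 250K list was not tested.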
